A study of Mus musculus with 8 samples.

Results

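The cytochrome P450 genes of the mouse lung were examined as the probes whose gene symbol on the array had the form of a P450 family, subfamily and gene number, such as Cyp2a4. This rule used no measured value, although the family was chosen with earlier results of these data known. It took 116 probes of 82 gene symbols out of 41174 probes on the array. Lung RNA came from 4 wild-type and 4 Scgb3a2-transgenic mice, all males labeled as C57BL/6 and aged 8 to 10 weeks that had received no treatment. The transgene was the mouse Scgb3a2 cDNA under the human SP-C gene promoter, which is active in alveolar type II cells, and the methods describe a single line of these mice, made in C57BL/6NCr eggs. RNA of each mouse was labeled with Cy5 and hybridized beside a Cy3-labeled pool of lung RNA, which the methods describe as equal amounts of each sample, so that a value is the log2 ratio of 1 mouse to the pool. Dyes were not swapped, and in a ratio to the pool the dye and the pool cannot be told apart, whereas a difference between the genotypes is free of the pool.

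P450 enzymes are heme proteins that insert an oxygen atom into their substrates with electrons from a reductase, mostly the P450 oxidoreductase Por. In the lung they are richest in Club cells of the bronchioles, and the lung carries its own set of them, with Cyp2f2, Cyp4b1, Cyp2s1 and members of Cyp2a and Cyp2b that oxidize inhaled compounds such as naphthalene, nicotine and styrene. Other P450 subfamilies make or break down steroids, bile acids, vitamins A and D, or oxidize arachidonic acid and other fatty acids.

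Promoter sequences are shown for the genes on which the comparison of genotypes turned, and for Cyp2f2, whose probe was the brightest. Of the 82 genes 59 had a promoter in the RefSeq table of mouse build GRCm38.p6. The 250 bases before the transcription start were searched on both strands for 5 motifs. These were TATAAA (the TATA box), GCGTG (the core that the aryl hydrocarbon receptor binds), TTGCNNAA (a C/EBP motif), TGTTTAC (FOXA) and CAAGTG (NKX2-1). TATAAA was found in 24 of the 59 genes (40.7%) as compared to 12.4% of 32817 promoter windows of the same length, and TTGCNNAA in 13 (22%) as compared to 9.57%. A gene was counted if any of its windows held the motif, whereas each of the 32817 windows was counted by itself, so that the units differ. The shares were 22% and 28.1% for GCGTG, 13.6% and 3.16% for TGTTTAC, and 16.9% and 11.6% for CAAGTG. The windows lie at chr7:26306942-26307191 for Cyp2a4, chr7:26835089-26835338 for Cyp2a5, chr7:26939387-26939636 (minus strand) for Cyp2a22, chr7:25897408-25897657 for Cyp2b10, chr7:26061245-26061494 for Cyp2b13, chr7:26173159-26173408 for Cyp2b9, chr7:140763569-140763818 for Cyp2e1 and chr7:27119705-27119954 for Cyp2f2, all on the plus strand except Cyp2a22. They are written from 5′ to 3′ with every match of the 5 motifs in capitals, and no matches overlapped.
Cyp2a4: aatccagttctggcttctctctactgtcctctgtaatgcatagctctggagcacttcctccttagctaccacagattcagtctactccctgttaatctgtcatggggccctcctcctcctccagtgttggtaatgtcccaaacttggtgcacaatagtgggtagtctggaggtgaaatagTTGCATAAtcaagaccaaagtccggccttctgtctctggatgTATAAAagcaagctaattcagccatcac
Cyp2a5: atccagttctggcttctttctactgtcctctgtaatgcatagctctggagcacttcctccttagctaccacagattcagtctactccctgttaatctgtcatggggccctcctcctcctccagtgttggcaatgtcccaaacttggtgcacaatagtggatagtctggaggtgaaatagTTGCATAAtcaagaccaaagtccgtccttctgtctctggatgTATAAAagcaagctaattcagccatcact
Cyp2a22: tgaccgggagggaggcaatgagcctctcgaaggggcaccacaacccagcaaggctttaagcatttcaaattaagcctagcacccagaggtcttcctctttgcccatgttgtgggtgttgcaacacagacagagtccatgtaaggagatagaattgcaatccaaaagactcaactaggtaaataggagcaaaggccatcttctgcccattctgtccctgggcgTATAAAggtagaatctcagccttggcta
Cyp2b10: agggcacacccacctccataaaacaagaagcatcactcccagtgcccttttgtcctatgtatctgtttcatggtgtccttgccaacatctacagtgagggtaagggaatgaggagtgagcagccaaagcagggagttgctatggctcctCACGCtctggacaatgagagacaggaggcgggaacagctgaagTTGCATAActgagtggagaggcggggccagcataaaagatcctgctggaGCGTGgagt
Cyp2b13: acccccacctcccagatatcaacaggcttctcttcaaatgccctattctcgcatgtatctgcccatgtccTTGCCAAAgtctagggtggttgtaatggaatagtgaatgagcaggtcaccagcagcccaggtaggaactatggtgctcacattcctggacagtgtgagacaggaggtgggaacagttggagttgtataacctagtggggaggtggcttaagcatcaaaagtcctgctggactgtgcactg
Cyp2b9: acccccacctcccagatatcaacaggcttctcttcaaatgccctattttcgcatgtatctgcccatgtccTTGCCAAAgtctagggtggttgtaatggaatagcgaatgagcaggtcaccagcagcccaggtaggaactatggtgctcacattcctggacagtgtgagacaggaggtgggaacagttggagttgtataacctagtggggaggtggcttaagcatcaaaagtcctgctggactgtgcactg
Cyp2e1: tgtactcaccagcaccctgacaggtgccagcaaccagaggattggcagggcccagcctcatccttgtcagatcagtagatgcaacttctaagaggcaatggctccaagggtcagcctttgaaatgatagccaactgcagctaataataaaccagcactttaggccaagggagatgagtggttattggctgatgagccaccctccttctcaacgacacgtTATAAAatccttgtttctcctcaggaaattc
Cyp2f2: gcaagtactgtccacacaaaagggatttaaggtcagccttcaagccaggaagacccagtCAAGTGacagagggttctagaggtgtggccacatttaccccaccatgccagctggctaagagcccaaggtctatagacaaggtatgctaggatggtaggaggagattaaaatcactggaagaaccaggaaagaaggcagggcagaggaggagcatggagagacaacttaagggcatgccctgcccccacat
In a global alignment the windows of Cyp2a4 and Cyp2a5 were identical at 245 of 251 columns (97.6%) and those of Cyp2b13 and Cyp2b9 at 248 of 250 (99.2%). Cyp2a4 and Cyp2a22 were identical at 51.1% of the columns, Cyp2b10 and Cyp2b13 at 68.8%, and Cyp2a4 and Cyp2e1 at 45.5%. The TATA box stood 28 bases before the start in Cyp2a4 and Cyp2a22, 29 in Cyp2a5 and 31 in Cyp2e1, counted from its first base, whereas none of these letters was found in the 3 Cyp2b windows or in Cyp2f2. The match to TTGCNNAA read TTGCATAA in Cyp2a4, Cyp2a5 and Cyp2b10, and TTGCCAAA in Cyp2b13 and Cyp2b9. These matches are letters in a window and not measured binding sites.

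The arrays lay on 4 slides, each with a mouse of either genotype, and scanning took 2 days with 2 arrays of each genotype per day. The median Cy5 signal of a spot was 204 to 277.5 per array over a local background of 55.5 to 59, without saturated spots, and per array 89 to 101 of the 116 P450 probes stood well above background. Of the tissue markers Sftpc, Scgb1a1 and Ager lay at the 99.7th percentile of probe signal or higher, and the liver gene Alb at the 21.7th. Not all markers were split in this way. The endothelial gene Pecam1 lay at the 27.9th percentile, and the fat genes Cidec and Adipoq lay at the 84.1st and 71.8th. The log2 ratio of Scgb3a2 itself was 0.0061, -0.39, 0.58 and -0.56 in wild-type mice 1 to 4 and 1.26, 0.47, 0.70 and 0.74 in transgenic mice 1 to 4. The transgenic mean was higher by 0.88 on the log2 scale (SE 0.24), although the highest wild-type mouse lay above the lowest transgenic mouse.

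Ranked by the median Cy5 signal of the brightest probe of a gene, Cyp2f2, which oxidizes naphthalene in Club cells, came first of the 82 genes. Its signal of 78229.6 lay at the 99.9th percentile of all probes on the array. Cyp4b1, an oxidase of fatty acids and aromatic amines, followed with 17700.1 and Cyp2b13 with 14209, both at the 98.8th percentile or higher. Then came Cyp2s1 with 6591, Cyp2b10 with 4309.9, Cyp2a5 with 3706, Cyp2a4 with 2733, Cyp2d10 with 2227, Cyp2j11 with 2113 and Cyp2d12 with 1832. This is an order of probe signals and not of transcripts, as signals also differ with the probe. The 2 probes of Cyp2b13 gave 14209 and 165, and those of Cyp2s1 gave 6591 and 512. All 10 of these genes were well above background on all 8 arrays by their brightest probe. Over all 116 probes this held for 85, while 21 were above background on 1 to 7 arrays and 10 on none.

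Probes entered the test if their Cy5 signal stood well above background on 4 or more arrays, whichever the genotype, as did 99 P450 probes of 75 genes. The 7 genes with no probe tested were Cyp2a12, Cyp2c39, Cyp2c54, Cyp2c65, Cyp4a31, Cyp24a1 and Cyp26a1. With the thresholds that the study used, an unadjusted p under 0.05 and a change of more than 1.5-fold, 6 P450 probes of 5 genes were lower in transgenic lungs and 0 were higher. Over all 32645 probes tested 0.104% were lower and 0.126% were higher by this rule. The probes that passed were 2 of Cyp2a4 and 1 each of Cyp2a5, Cyp2a22, Cyp2b13 and Cyp2e1. At an unadjusted p under 0.05 alone 7 P450 probes were lower and 1 was higher, as compared to 0.974% and 1.12% of all probes. After Benjamini-Hochberg adjustment over all probes in limma, 0 probes of the array passed, P450 probes included, and 683 (2.09%) had an unadjusted p under 0.05, and the methods' t-test after the same adjustment also left 0. Of the 99 probes 66 lay below 0 and 33 above, as compared to 49.6% of all probes below 0, and their median log2 difference was -0.05 as compared to 0.00099 over all probes. The count of lower probes was 10 without wild-type mouse 4 and 5 when spots marked as outliers by the extraction software were kept. It was 4 when only the background model was fitted on all spots, marked ones included, and 3 when both were done.

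**Figure D1:**
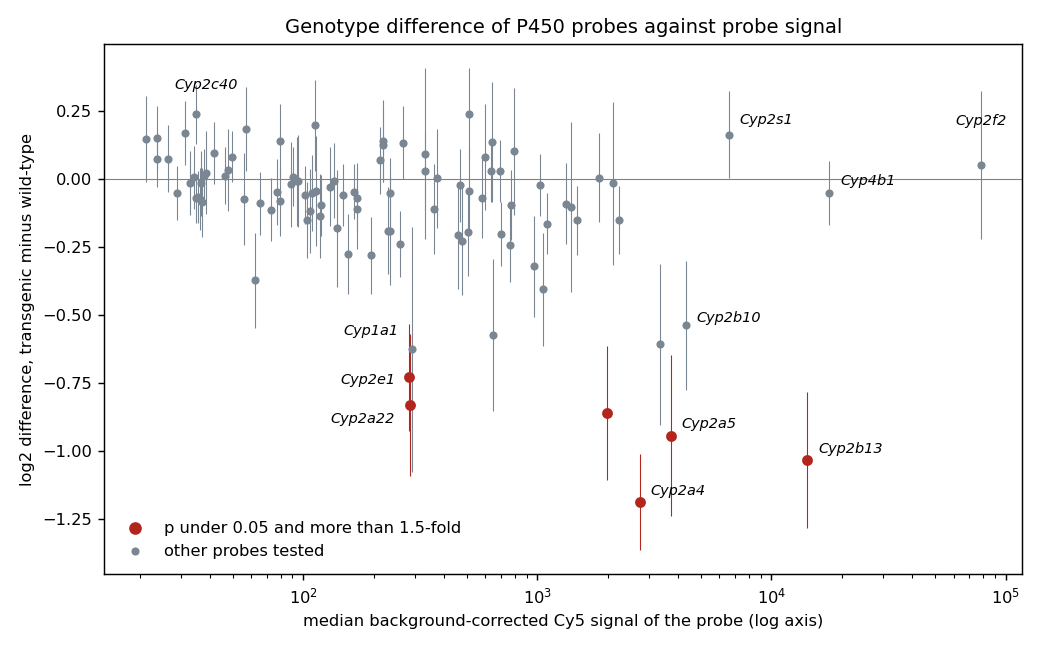
Log2 difference (transgenic minus wild-type, with SE) of the 99 P450 probes tested, against the median background-corrected Cy5 signal of the probe on a log axis. The 6 probes past both thresholds, in red, lie between -1.19 and -0.73, while the brightest probe, of Cyp2f2, lies at 0.05.

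The Cyp2a subfamily had the lowest median difference of the subfamilies with 2 or more tested probes. Cyp2a5 hydroxylates coumarin and nicotine, Cyp2a4 is its near copy with steroid 15α-hydroxylase activity, and all 5 of their subfamily's tested probes lay below 0, with 4 past both thresholds and a median of -0.86. Cyp2a4 had 3 probes. Its second-brightest probe had a value on every array, with log2 ratios of 0.89, 0.66, 1.09 and 0.03 in wild-type mice 1 to 4 and -0.45, -0.42, 0.46 and -0.37 in transgenic mice 1 to 4. Transgenic mouse 3 was the high one of its group and wild-type mouse 4 the low one, so that the groups overlapped through these 2 mice. The means were 0.66 ± 0.46 (SD, n = 4) and -0.19 ± 0.44 (SD, n = 4). The difference was -0.86 (SE 0.25, 95% interval -1.40 to -0.32, limma p = 0.00507, exact permutation p = 0.0571), or 1.81-fold lower.

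The brightest Cyp2a4 probe gave 1.33 and 0.90 in wild-type mice 1 and 2 and 0.04, -0.26 and 0.01 in transgenic mice 1, 2 and 4, while the spots of wild-type mice 3 and 4 and transgenic mouse 3 had been marked as outliers. The groups did not overlap among these 5 arrays, and the difference was -1.19 (SE 0.18, limma p = 0.00013, exact permutation p = 0.1, the smallest that 2 against 3 allow). When marked spots were kept, with the background model still fitted on unmarked spots, the missing arrays read 1.67, 0.19 and 0.69. The groups then overlapped and the difference was -0.89, still past both thresholds. The dimmest probe of Cyp2a4 gave 1.31, 0.72, 1.30 and 0.25 in wild-type and 0.76, -0.17, 0.77 and -0.07 in transgenic mice, a difference of -0.57 (SE 0.28, limma p = 0.0641, exact permutation p = 0.171) that did not pass.

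Cyp2a5 gave 0.99, 1.60 and 0.31 in wild-type mice 2 to 4 and -0.22, -0.19, 0.65 and -0.16 in transgenic mice 1 to 4. Again transgenic mouse 3 stood above the other 3 of its group and above wild-type mouse 4. The difference was -0.94 (SE 0.30, limma p = 0.00936, exact permutation p = 0.0857), or 1.92-fold lower. Cyp2a22, a Cyp2a gene of little studied function, gave 0.57, 0.60, 1.20 and -0.14 in wild-type and -0.27, -0.67, 0.28 and -0.42 in transgenic mice. The same 2 mice made its groups overlap, and the difference was -0.83 (SE 0.26, limma p = 0.00854, exact permutation p = 0.0571), or 1.78-fold lower. On none of the arrays was Cyp2a12 well above background. Cyp2a4 and Cyp2a5 are near-identical in sequence, so that their probes may share signal, which was not tested, and the 3 probes of these genes that passed may not be changes of separate genes.

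**Figure D2:**
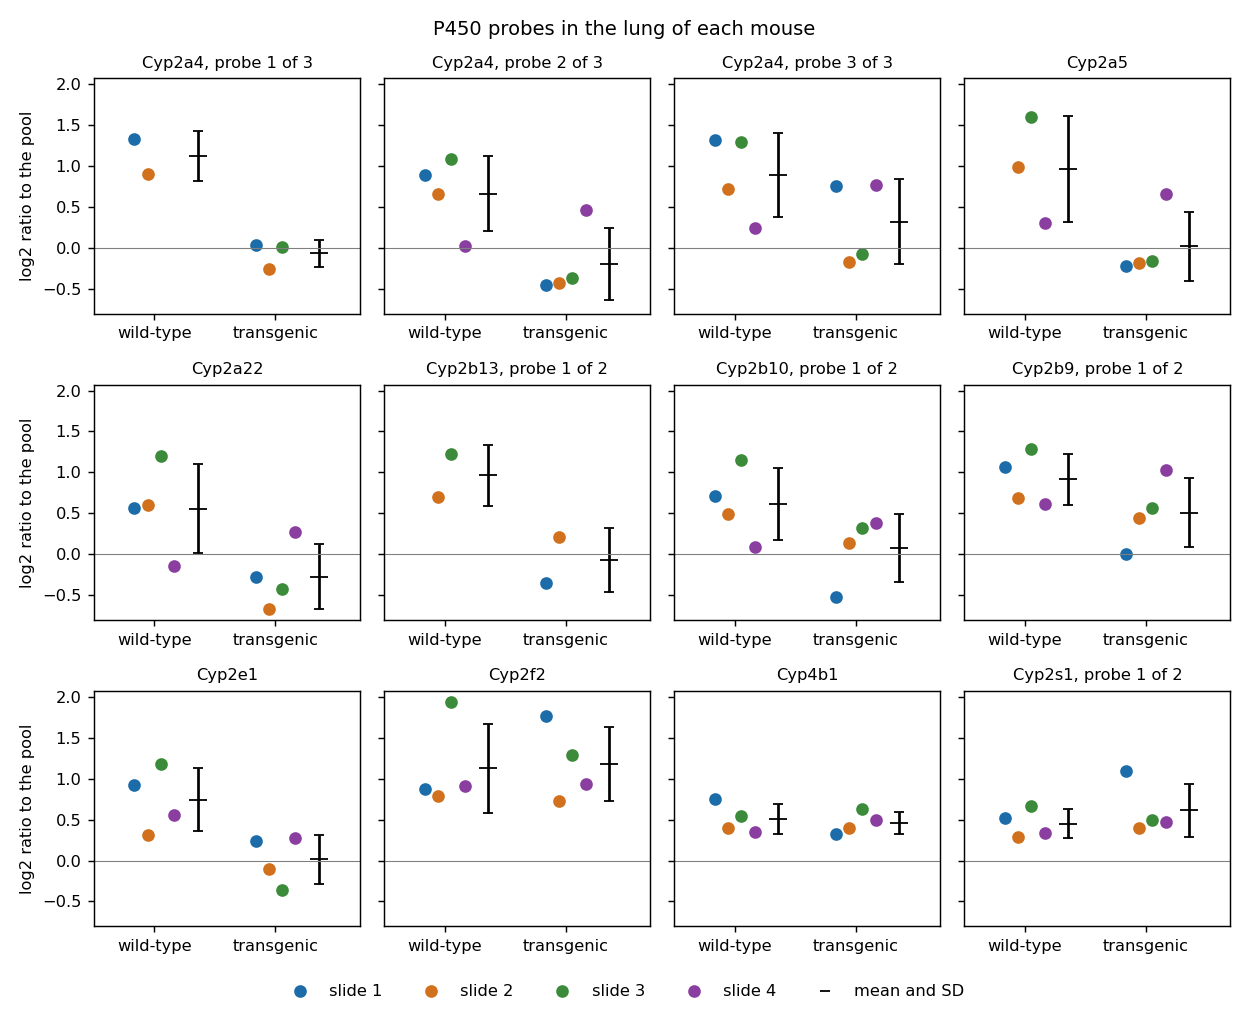
Log2 ratio to the pool of 12 P450 probes in each mouse, with wild-type at the left and transgenic at the right of each panel, the slide in color, and the mean and SD in black. In the Cyp2a panels the transgenic mouse of slide 4, where it has a value, lies at 0.28 to 0.77, above its wild-type partner, and in the Cyp2e1 panel all transgenic mice lie below all wild-type mice.

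Cyp2b enzymes oxidize many drugs and testosterone, and 7 of their 8 tested probes lay below 0, with 1 past both thresholds and a median of -0.36. That probe, the brighter of Cyp2b13, had values on 4 arrays only, with 0.70 and 1.23 in wild-type mice 2 and 3 and -0.35 and 0.21 in transgenic mice 1 and 2. These groups did not overlap, and the difference was -1.03 (SE 0.25, limma p = 0.00418, exact permutation p = 0.333, the smallest that 2 against 2 allow). In the same setting the kept spots read 0.92 and 0.22 in wild-type mice 1 and 4 and 0.50 and 0.57 in transgenic mice 3 and 4, and then the groups overlapped with a difference of -0.51, under 1.5-fold. The dimmer probe of Cyp2b13 lay at 0.25 to 0.42 in wild-type and 0.10 to 0.38 in transgenic mice, with a difference of -0.05 (SE 0.10, 95% interval -0.27 to 0.18, limma p = 0.664, exact permutation p = 0.629). The 2 probes of this gene therefore disagreed, and as Cyp2b13 and Cyp2b9 are close relatives with nearly the same promoter window, signal shared between Cyp2b genes was not tested and both the rank and the call of Cyp2b13 are uncertain.

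Cyp2b10, the phenobarbital-induced gene of the subfamily, gave 0.72, 0.49, 1.16 and 0.09 in wild-type and -0.52, 0.14, 0.38 and 0.32 in transgenic mice by its brighter probe. The groups overlapped, and the difference of -0.54 (SE 0.24, limma p = 0.0443, exact permutation p = 0.143) was 1.45-fold, short of the fold threshold. Leaving out 1 mouse at a time gave -0.71 to -0.34. Without wild-type mouse 4 it was -0.71, without transgenic mouse 3 -0.64 and without transgenic mouse 4 -0.62, each past both thresholds. The dimmer probe differed by -0.61 (SE 0.30, limma p = 0.0671, exact permutation p = 0.2). Cyp2b9 gave 1.07, 0.69, 1.28 and 0.62 in wild-type and 0.0045, 0.44, 1.02 and 0.57 in transgenic mice, with transgenic mouse 3 again high, and differed by -0.41 (SE 0.21, limma p = 0.0782, exact permutation p = 0.143), and by -0.32 (SE 0.19) in its second probe. Cyp2b23 differed by -0.13 (SE 0.16) and Cyp2b19, an epidermal epoxygenase, by 0.14 (SE 0.15).

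Cyp2e1, which oxidizes ethanol, acetone and other small molecules, gave 0.92, 0.31, 1.18 and 0.55 in wild-type mice 1 to 4 and 0.23, -0.10, 0.28 and -0.36 in transgenic mice 1 to 4. Every transgenic mouse lay below every wild-type mouse, which among the 88 P450 probes tested with 8 values held for this probe only, as compared to 0.546% of all such probes (in the opposite direction it held for 0 P450 probes and 0.915% of all). The means were 0.74 ± 0.39 (SD, n = 4) and 0.01 ± 0.30 (SD, n = 4). The difference was -0.73 (SE 0.20, 95% interval -1.16 to -0.29, limma p = 0.00343, exact permutation p = 0.0286, the smallest that 4 against 4 allow), or 1.66-fold lower. Without wild-type mouse 3, the highest of all, it was -0.58, less than 1.5-fold. Of 13 adipocyte probes 10 lay below 0 and 3 were called lower. These were Adipoq, the gene of an adipocyte hormone, at -0.89 (SE 0.25), and both probes of Fabp4 at -0.87 and -1.14. Ucp1 at 0.15 and Slc36a2 at 0.12 and 0.03 lay above 0. The mean log2 ratio of the adipocyte list was 0.29 to 0.71 in wild-type and -0.35 to 0.35 in transgenic mice. Of 16 type II cell probes 3 were also called lower, with a median of -0.47 as compared to -0.29 for the adipocyte probes. Of liver markers 0 of 11 probes were called. The part of these cells in the Cyp2e1 result was not tested, and in whole-lung RNA fewer cells of a type and less RNA per cell cannot be told apart.

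The 3 genes that are best known as pulmonary P450s besides Cyp2a and Cyp2b did not pass the test in either direction. Cyp2f2 gave 0.87, 0.78, 1.94 and 0.91 in wild-type and 1.76, 0.73, 0.94 and 1.29 in transgenic mice, with 1 high mouse in each group. Its difference was 0.05 (SE 0.27, 95% interval -0.54 to 0.65, limma p = 0.853, exact permutation p = 0.886), and the sign turned when any of wild-type mice 1, 2 and 4 or transgenic mouse 1 was left out. Cyp4b1 gave 0.75, 0.39, 0.54 and 0.35 in wild-type and 0.33, 0.40, 0.49 and 0.63 in transgenic mice. Its difference was -0.05 (SE 0.12, 95% interval -0.31 to 0.21, limma p = 0.685, exact permutation p = 0.686), and it turned to 0.03 without wild-type mouse 1. Cyp2s1, an epithelial P450, gave 0.52, 0.29, 0.66 and 0.33 in wild-type and 1.099, 0.40, 0.47 and 0.49 in transgenic mice, with transgenic mouse 1 standing apart. Its differences of 0.16 (SE 0.16, 95% interval -0.19 to 0.51) and 0.24 (SE 0.17) in its 2 probes were both positive and did not pass, and in the Cy5 channel alone the first was -0.09.

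Several of these genes lie in 1 stretch of mouse chromosome 7. The RefSeq annotation places 16 Cyp2 genes from Cyp2s1 through the Cyp2b and Cyp2a genes to Cyp2f2. Of these 12 are protein-coding, and all 12 are on the array. The stretch was bounded at Cyp2s1 and Cyp2f2 by choice, and genes other than P450s within it were not considered. This grouping was made after the values had been seen and carries no test. Of its 17 tested probes 13 lay below 0 and 5 were called lower, with a median of -0.41, and of the 82 tested probes of P450 genes elsewhere 53 lay below 0 and 1 was called, with a median of -0.05. Cyp2s1 and Cyp2f2, the genes chosen as its bounds, had differences above 0. Cyp2e1 lies on the same chromosome but far from the others.

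**Figure D3:**
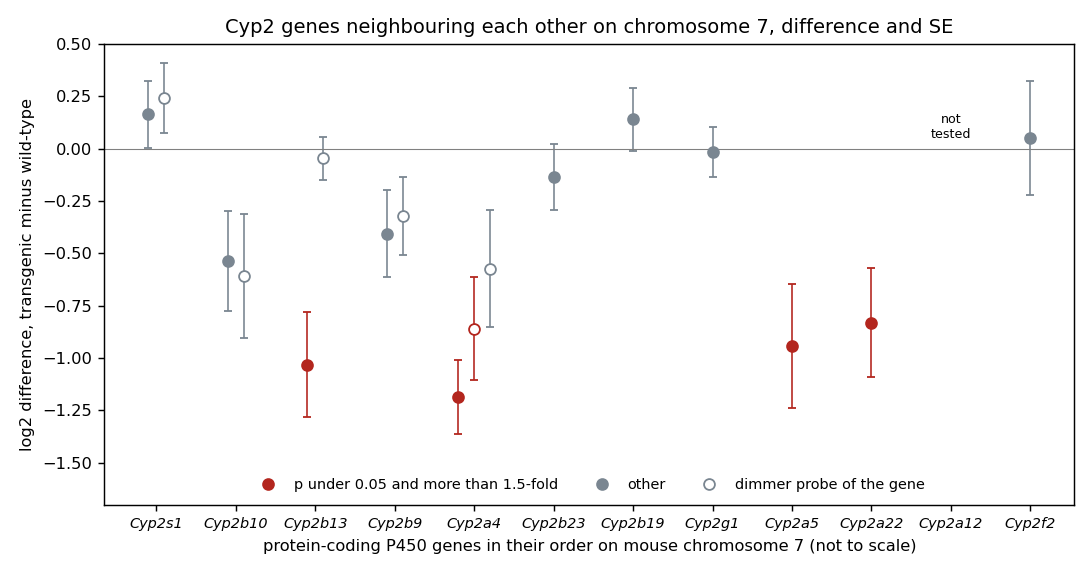
Log2 difference (transgenic minus wild-type, with SE) of the probes of 12 protein-coding Cyp2 genes from Cyp2s1 to Cyp2f2 in their order on chromosome 7. Dimmer probes of a gene are open circles, and probes past both thresholds are in red. The probes in red belong to Cyp2b13, Cyp2a4, Cyp2a5 and Cyp2a22. Cyp2s1 and Cyp2f2, chosen as the bounds, lie above 0.

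As each slide carried both genotypes, the difference was also taken within slides. For the second Cyp2a4 probe it was -1.34, -1.08 and -1.45 on slides 1 to 3 and 0.44 on slide 4, which held wild-type mouse 4 and transgenic mouse 3. Cyp2a22 gave -0.84, -1.27, -1.62 and 0.41, and Cyp2b10 gave -1.24, -0.35, -0.84 and 0.28. Thus 3 slides showed lower levels in the transgenic mouse and 1 slide showed the opposite. Cyp2a5 (-1.17 and -1.76 on slides 2 and 3, 0.35 on slide 4) and Cyp2b9 (-1.06, -0.25, -0.72 and 0.41) had the same pattern. Cyp2e1 was lower on all 4 slides, by -0.69, -0.41, -1.54 and -0.28. Cyp2f2 had 2 slides in each direction, with 0.89 on slide 1 and -0.65 on slide 3. By scan day, the second Cyp2a4 probe differed by -1.40 on day 1 and -0.32 on day 2, and Cyp2e1 by -1.11 and -0.34. With the slide as a block 6 P450 probes were called lower, 5 of them the same, and with the scan day as a block 7, including the same 6.

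**Figure D4:**
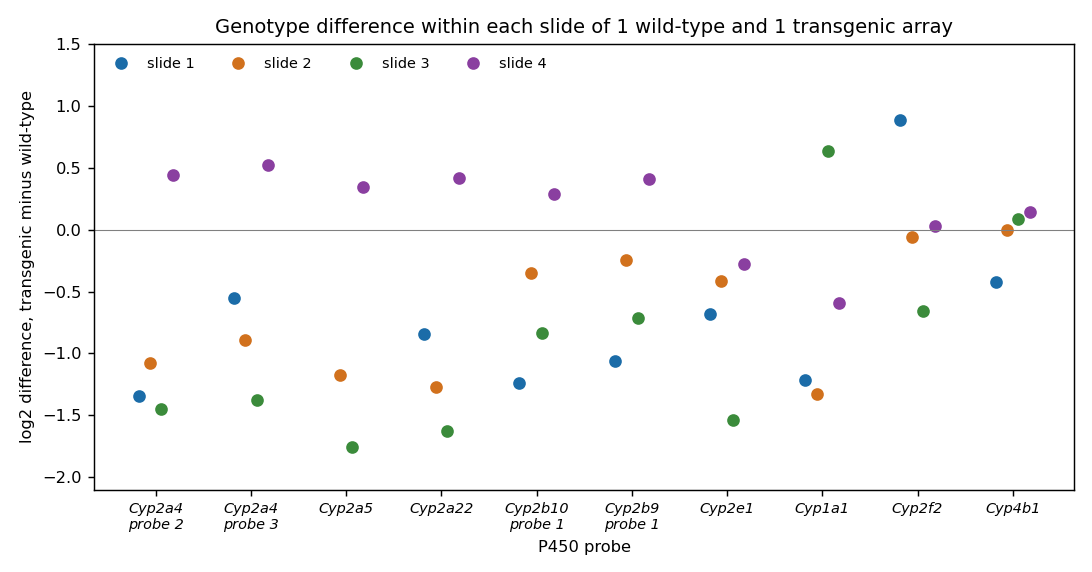
Log2 difference of the transgenic from the wild-type array of each slide, in color, for 10 P450 probes. For the Cyp2a, Cyp2b10 and Cyp2b9 probes slides 1 to 3 lie below 0, as far as they have values, and slide 4 above it at 0.28 to 0.53, while Cyp2e1 lies below 0 on all 4 slides.

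Among the other P450s that oxidize foreign compounds no probe was called. Cyp1a1 and Cyp1a2 are the classic targets of the aryl hydrocarbon receptor and oxidize polycyclic aromatics. Cyp1a1 gave 0.89, 1.28, 0.17 and -0.68 in wild-type and -0.32, -0.05, -1.27 and 0.80 in transgenic mice. The groups overlapped widely, and the difference of -0.62 (SE 0.45, 95% interval -1.61 to 0.36, limma p = 0.192, exact permutation p = 0.371) did not pass. Leaving out 1 mouse at a time gave -0.99 to -0.27. It was -0.99 without wild-type mouse 4 and -0.96 without transgenic mouse 4, each past both thresholds. Cyp1a2 differed by 0.09 (SE 0.31) with its brighter probe, with transgenic mouse 4 highest at 0.59 and a difference of -0.25 without that mouse, and by -0.08 (SE 0.13) with the other. Of the 11 tested Cyp2d probes 9 lay below 0 (median -0.11), among them the brighter probe of Cyp2d10 at -0.15 (SE 0.13, but 0.04 with the background model fitted on all spots), while Cyp2d12 was at 0.01 (SE 0.16) and Cyp2d34 at 0.19 (SE 0.15). Of the 9 Cyp3a probes, drug-oxidizing enzymes mostly of liver and gut, 6 lay below 0 (median -0.05), and Cyp3a13 was at -0.24 (SE 0.12, limma p = 0.0762, exact permutation p = 0.0857), a gene named, like Cyp2j13, Cyp27a1, Cyp7b1 and Cyp3a11, after its value had been seen. Cyp2ab1 was at 0.20 (SE 0.17). In all, 34 of 46 tested probes of this role lay below 0, 6 were called lower, and the median was -0.08.

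The Cyp2c, Cyp2j and Cyp2u subfamilies were grouped as oxidizing arachidonic and linoleic acid, a role set by subfamily and not by gene. Of their 18 tested probes 11 lay below 0 and 0 were called, with a median of -0.01. Cyp2c40, which oxidizes arachidonic acid, gave -0.21, -0.46, -0.24 and -0.15 in wild-type and 0.12, 0.02, -0.18 and -0.07 in transgenic mice. It was the only P450 probe higher at an unadjusted p under 0.05, with a difference of 0.24 (SE 0.11, limma p = 0.0497, exact permutation p = 0.0571), and its signal lay at the 24th percentile. The offset of 50 added to the signals draws ratios of such dim probes toward 0. Over all settings Cyp2c40 differed by 0.17 to 0.79, and in 4 of them it passed both thresholds. Cyp2j11 differed by -0.02 (SE 0.30, 5 arrays with a value) and 0.01 (SE 0.11) with its 2 probes, and Cyp2j13 by -0.37 (SE 0.17, limma p = 0.0564, exact permutation p = 0.114).

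Of the fatty acid omega-hydroxylases of the Cyp4a, Cyp4f, Cyp4v and Cyp4x subfamilies 10 of 16 probes lay below 0 and 0 were called, with a median of -0.05. Of the enzymes of steroid, bile acid and sterol metabolism 8 of 14 lay below 0 and 0 were called, with a median of -0.03. Cyp27a1, the sterol 27-hydroxylase, was at -0.28 (SE 0.15), and Cyp7b1, the oxysterol 7α-hydroxylase, was at 0.13 (SE 0.13). Cyp11a1, which cleaves the cholesterol side chain, was at 0.17 (SE 0.12) and 0.08 (SE 0.12) with signals at the 22.3rd and 19.6th percentile. Over all settings Cyp11a1 differed by 0.015 to 0.59. Of the vitamin A and D enzymes 2 of 4 lay below 0 and 0 were called, with a median of -0.02. Cyp20a1, a P450 with no assigned role here, was at -0.04.

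**Figure D5:**
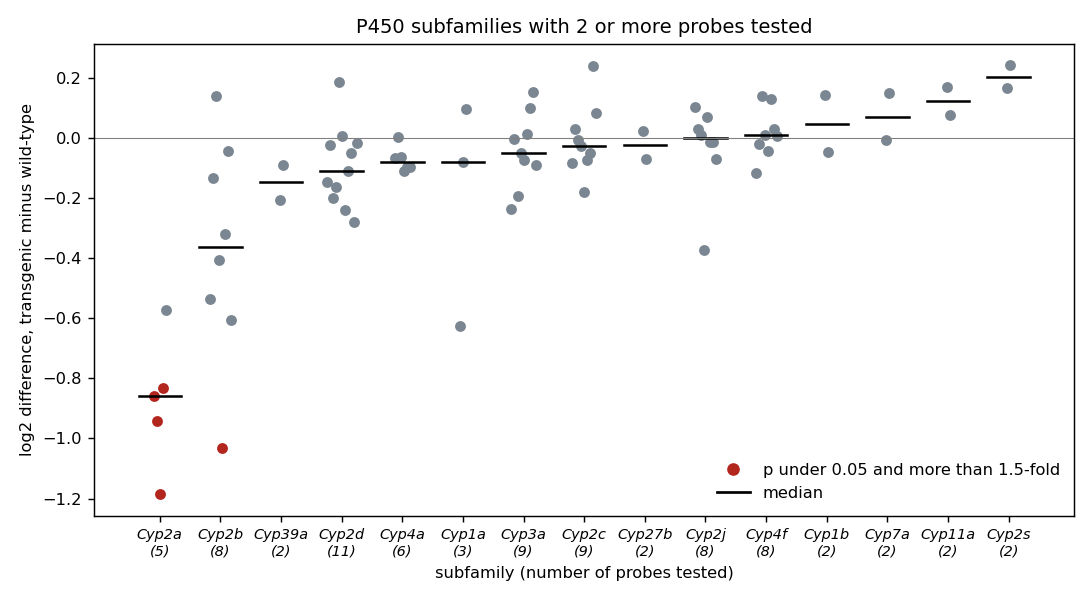
Log2 difference (transgenic minus wild-type) of each tested probe, by subfamily, for subfamilies with 2 or more tested probes, with the median as a black line and the number of probes in brackets. Cyp2a has the lowest median at -0.86, followed by Cyp2b at -0.36, and the medians of the other subfamilies lie between -0.15 and 0.20.

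The mice differed among themselves in P450 levels. Cyp1a1 had an SD of 0.86 over the 8 mice, and its SD within genotypes was at the 99.6th percentile of probes of like signal. Cyp1a2 followed at the 99.1st, the dimmest Cyp2a4 probe at the 98.8th, the second Cyp2a4 probe at the 98.5th, Cyp2f2 at the 98.3rd and Cyp2a22 at the 98.1st percentile. Of the 88 P450 probes tested with 8 values, 61 had a larger spread than the median probe of like signal and 19 a larger one than the 90th percentile. Against the pool 74 of the 99 tested probes (74.7%) were above 0 on average, as compared to 51.2% of all probes tested. The highest were the second Cyp2s1 probe at 1.71 ± 0.29 (SD, n = 8), the brighter Cyp2j11 probe at 1.19 ± 0.43 (SD, n = 5) and Cyp2f2 at 1.15 ± 0.46 (SD, n = 8). The brighter Cyp2s1 probe was at 0.53 ± 0.26 (SD, n = 8) and the dimmer Cyp2j11 probe at -0.18 ± 0.12 (SD, n = 8). The lowest were Cyp7b1 at -1.59 ± 0.20 (SD, n = 8) and Cyp3a11 at -0.68 ± 0.26 (SD, n = 8). Ratios far from 0 on one side in all mice were also seen outside the P450 genes, with Retnla at -4.20 to -2.21 and Cd68 at -2.43 to -1.61 in all 8 mice and Scgb1a1 at 1.43 to 2.83 in every mouse with a value, whereas a pool of equal amounts of these RNAs, read alike in both dyes, would lie near their mean. The parts of the pool and of the dyes in these ratios cannot be told apart.

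The genes whose log2 ratios over the 8 arrays were most like those of the second Cyp2a4 probe, among 17333 other genes, were Cyp2a22 (Pearson r = 0.96), Fgfbp1 (r = 0.96), 6330503K22Rik (r = 0.96), Bbs2 (r = 0.95) and Gne (r = 0.95). These arrays share the genotypes, the slides and the pool. The ratios of Fgfbp1 were 0.61, 0.46, 0.62 and 0.18 in wild-type and 0.09, 0.04, 0.51 and -0.09 in transgenic mice, with wild-type mouse 4 low and transgenic mouse 3 high as in Cyp2a4. Among P450 genes Cyp2b9 (r = 0.88), Cyp4v3 (r = 0.85), Cyp2b10 (r = 0.85) and Cyp2e1 (r = 0.83) came next.

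The partners of the P450 enzymes were measured as well. Of 16 probes of redox partners and of heme supply 0 were called (median -0.02), and Por was at -0.04 (SE 0.16) and Alas1, the first enzyme of heme synthesis, at 0.11 and -0.06. Of 19 probes of receptors and regulators 0 were called (median -0.03). Cebpa, a transcription factor of the C/EBP family, gave 0.53, 0.43, 0.58 and 0.41 in wild-type and -0.01, 0.22, 0.25 and -0.08 in transgenic mice with 1 of its 2 probes. The groups of this probe did not overlap, and its difference was -0.39 (SE 0.11), past the threshold of p but under 1.5-fold, while its other probe differed by -0.33 (SE 0.22) over 5 arrays. The receptor Ahr was at 0.26 (SE 0.18). Of 35 probes of other oxidation and conjugation enzymes 0 were called (median -0.05), and Gstm2, a glutathione transferase, was at 0.38 (SE 0.16), also past the threshold of p but under 1.5-fold.

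Markers of the cells in which lung P450s are found moved unevenly. Of 12 Club cell and airway secretory probes 9 lay below 0 and 1 was called lower, Bpifa1, a secreted airway protein, at -1.53 (SE 0.53), and the defining Club cell gene Scgb1a1 was at -0.10 (SE 0.30). The mean log2 ratio of this list was -0.36 to 0.29 in wild-type and -1.02 to 0.25 in transgenic mice. It was drawn down by both Retnla probes, at -4.20 to -2.21 over all mice. In transgenic mouse 4, the lowest, Reg3g was at -3.84 and Bpifa1 at -2.39, whereas Scgb1a1 was at 1.98. Cbr2, at 2.44 in that mouse, was not tested and did not enter the mean. Of 16 type II cell probes 15 lay below 0 and 3 were called lower, Sftpa1, Lamp3 and Slc34a2, with a median of -0.47. Their list mean was -0.0057 to 1.05 in wild-type and -0.28 to 0.31 in transgenic mice. Wild-type mouse 4 was the lowest of its group, as it was for Cyp2a22, Cyp2b10 and the second Cyp2a4 probe. It was also the lowest in the ciliated, type I, macrophage, redox partner, regulator and conjugation enzyme lists. In the Club cell, endothelial, adipocyte and liver lists it was not the lowest. Each list mean covered the probes with a value on that array, so that the means also differ through missing probes. In the type II list, for example, wild-type mouse 4 lacked values of Abca3, Lamp3 and Slc34a2 probes, and transgenic mouse 4 lacked that of Sftpc. Transgenic mouse 3, the high one in Cyp2a, was at 0.19 in the type II list, below transgenic mouse 2 at 0.31. Of 16 ciliated, 9 type I, 10 endothelial, 11 liver and 11 macrophage probes 0, 0, 0, 0 and 1 were called lower. The endothelial list had 1 called higher, Kdr, at 0.63 (SE 0.20). Tek of the same list was at -0.44 (SE 0.14), past the threshold of p but under 1.5-fold. Of the endothelial probes 4 lay below 0 and 6 above. The macrophage probe called lower was 1 of Lyz2, at -0.76 (SE 0.31), while Fabp1 was at 0.45 (SE 0.19). Of the macrophage probes 7 lay below 0 and 4 above. At background on every array were 1 probe each of Abca3 in the type II list, Kdr in the endothelial, Acvr1c in the adipocyte, Ccdc39 and Spag6 in the ciliated and Apob in the liver list, and the single probe of the liver gene Cps1. The part of these cells in the P450 results was not tested.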

How the data were processed

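Total lung RNA of 8 mice was hybridized to 2-color Agilent 4x44K mouse arrays, with the mouse in Cy5 and a pool, per the methods of equal amounts of all RNAs, in Cy3. The deposited scanner files hold intensity values per spot, extracted by the authors with Agilent Feature Extraction (version 11.0.1.1 per the labels, 10.10.1.1 per the file headers). They also hold the processed signals and a log10 ratio of these, and the deposited matrix of the whole series holds the authors' log2 ratios. On 39811 of 39811 probes with 1 spot these lay within 0.001 of the processed ratio. The labels and the methods differ in the RNA kit and slightly in age.

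From the median intensities, background was corrected by normexp with an offset of 50, fitted on spots not marked as outliers by the extraction software, and marked spots were left out. Ratios were loess-normalized within arrays and spots averaged per probe (limma 3.58.1, R 4.3.3). Probes well above background in Cy5 on at least 4 arrays, with at least 2 values per genotype, were tested with limma's moderated test over 4 wild-type and 4 transgenic samples, 32645 probes in all, and adjusted by Benjamini-Hochberg. Where a group had fewer values, n is given or the missing mice are named. A gene with several probes was given by its brightest probe, the others beside it. The pipeline was tested on simulated data for this comparison with 32645 probes. In these 75% of 100 probes changed 2-fold and 98% of 100 changed 4-fold were found, with 7 false calls in either case. Changes of less than 2-fold were not simulated. The number of arrays limits the precision.

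Named P450 genes were those of the Cyp1a, Cyp2a and Cyp2b subfamilies, Cyp2f2 and Cyp4b1, the 10 of highest signal, the 5 largest differences in each direction, and those past both thresholds or without overlap. The 5 genes most like Cyp2a4 were named by Pearson's r. Exceptions are marked in the text, and genes of the accompanying lists are examples. Members, gene lists and marker lists were chosen with earlier results of these data known. Alternatives covered the background correction, scaling, signals, outlier spots, filters, blocks, tests and leaving out each mouse. Promoters (GRCm38.p6) came from RefSeq and were aligned with Biopython 1.88. Replicate numbers did not pair the samples.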

Additional observations from a re-analysis of the deposited data

Results flagged for a closer look

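The values of 4 genes in 1 mouse each stood apart from the others of its genotype by Dixon's criterion, out of 33 groups of 4 mice tested over 21 genes, and chance alone gives about 1 in 20. The log2 ratio of Cyp2a5 was 0.65 in transgenic mouse 3, with the other transgenic mice at -0.22 to -0.16. That of Cyp2f2 was 1.94 in wild-type mouse 3, with the others at 0.78 to 0.91. That of Cyp2s1 was 1.099 in transgenic mouse 1, with the others at 0.40 to 0.49, and that of Cyp11a1 was -0.12 in transgenic mouse 4, with the others at 0.14 to 0.18.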

How the results depend on the processing

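The number of P450 probes called lower was 6. It was 4 with normexp fitted on all spots, 5 when spots marked as outliers were kept with the background fitted on unmarked spots, a setting chosen after seeing the data, and 3 when both were done. Leaving out 1 mouse gave 4 to 10, with 10 without wild-type mouse 4. The replicate number, which did not pair the samples (same-number correlations 0.32, 0.25, -0.08 and -0.21), gave 5 as a replicate block, all among the 6. The number called higher was 0, and 1, Cyp2c40, with a normexp offset of 0, with processed signals, on the authors' matrix and with the methods' t-test on the matrix. The median difference stayed between -0.11 and -0.03 in all settings. Over all probes 34 were called lower and 41 higher, but 184 and 187 with processed signals and 179 and 181 on the authors' matrix. The cause of these changes was not tested.

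The brightest Cyp2a4 probe stayed past both thresholds in all settings that gave it a value. No longer past both thresholds were Cyp2a22 (-0.55 with normexp on all spots, whether or not marked spots were kept, and with the methods' t-test on the matrix), Cyp2a5 with the methods' t-test, Cyp2e1 (-0.55 in the same pair of settings and -0.58 without wild-type mouse 3) and Cyp2b13 in 6 settings (-0.54 on the matrix and -0.29 as the mean of its probes among them). Cyp2b13 could not be fitted without a mouse that had a value.

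Genes that were not called turned sign as follows. Cyp2f2 was -0.064 with array weights and -0.14 to 0.32 without a mouse. Cyp2j11 was 0.32 with normexp on all spots, 0.0076 with processed signals, 0.042 in the Cy5 channel alone, 0.091 with normexp on all spots and marked spots kept, and -0.16 to 0.24 without a mouse. Cyp2d12 was -0.0012 with an offset of 0, -0.13 with median-centered arrays, -0.071 with processed signals, -0.11 on the matrix under either test, -0.14 with array weights, -0.040 with marked spots kept on the unmarked background, and -0.073 to 0.056 without a mouse. With normexp on all spots, without and with marked spots kept, Cyp2ab1 was -0.0056 and -0.0063 and Cyp2d10 was 0.039 and 0.043. Cyp2s1 was -0.090 in the Cy5 channel alone. Without a mouse Cyp1a2 was -0.25 to 0.32, Cyp2b23 -0.23 to 0.022 and Cyp4b1 -0.10 to 0.032.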
